A study of Mus musculus with 4 samples.

Results

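The sarcomere and contractile muscle genes are 37 genes, chosen by name from the 32285 genes listed for each section, that build the contractile apparatus of striated muscle or supply it with calcium and energy. All 37 were found, and no measured value was used to choose them. They were followed in 4 mouse tissue sections measured with 10x Visium, an array of spots that capture the transcripts of the tissue above them, each spot with its own barcode and each transcript counted by a unique molecular identifier (UMI). The sections were oral mucosa at postoperative day 4, unwounded oral mucosa, facial skin at postoperative day 4 and unwounded facial skin, with 1 section per group. Every section came from Wildtype mice and flash-frozen tissue, the day 4 groups differ from the unwounded groups by the wound, and age is not given in the sources used here. The study set wounds of oral mucosa beside wounds of facial skin.

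The sarcomere is the repeating unit of striated muscle, in which thick myosin filaments pull on thin filaments of actin between Z discs, the plates that anchor the thin filaments. Troponin C binds calcium, troponin I holds the thin filament off and troponin T ties both to tropomyosin. Calcium leaves the sarcoplasmic reticulum through the ryanodine receptor and is pumped back by calcium ATPases. Fast-twitch and slow-twitch fibres use different isoforms of many of these proteins, each from its own gene, and some isoforms that mark slow fibres in adult muscle are also used while muscle forms. Muscles of the mouse face and mouth are known to be mostly fast.

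The day 4 oral section had 430 spots and 3004174 UMIs, unwounded oral mucosa 1288 spots and 7285023 UMIs, day 4 facial skin 1141 spots and 9934290 UMIs, and unwounded facial skin 671 spots and 11939479 UMIs. Of these spots 365, 523, 1096 and 653 in the same order had at least 1000 UMIs, and values across spots use those. The sections shared 46 to 347 spot barcodes by pair, since arrays of this kind carry a common barcode set. Mitochondrial transcripts made 11.9% and 20.8% of UMIs in the day 4 and unwounded oral sections, against 2.75% and 2.71% in the day 4 and unwounded facial sections. Xist had 84 and 909 UMIs in the day 4 oral and facial sections, against 0 and 1 UMI in their unwounded counterparts, and the Y-linked Ddx3y had 0 UMIs in both day 4 sections, against 280 and 587 UMIs in the unwounded sections. The wound comparisons thus set sections of opposite sex-linked expression side by side, and the wound and that difference cannot be told apart. The section labelled unwounded facial skin was high in neutrophil markers, which goes against its label: the list summed to 223 CPM in day 4 facial skin and 5842 CPM in unwounded facial skin (CPM are UMIs per 1000000 UMIs of the section), and 0 of its 4 genes were higher at day 4 and 4 lower. In oral mucosa the list had 3673 CPM at day 4 and 29.9 CPM unwounded, with 4 of 4 genes higher. Groups are named by their labels, and each facial day 4 over unwounded ratio would change sign if those labels were exchanged. Embryonic myosin Myh3 had 86 UMIs in the section labelled day 4 facial skin and 1 in the one labelled unwounded, and the myogenic regulator Myog 34 and 6 UMIs. Spots with at least 1% of their UMIs in neutrophil markers numbered 51 (day 4) and 2 (unwounded) for oral mucosa and 0 (day 4) and 100 (unwounded) for facial skin, and 0 of them held muscle by the myosin measure used below.

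The sarcomere genes made up a large share of the transcripts of oral mucosa and a small share of those of facial skin. In oral mucosa they held 201758 UMIs at day 4 (6.72% of the section) and 577882 unwounded (7.93%). In facial skin they held 20619 at day 4 (0.208%) and 33105 unwounded (0.277%). Skeletal alpha-actin, Acta1, the main actin of the thin filament, led the genes in UMIs in all 4 sections, with 14581 CPM in day 4 and 13848 CPM in unwounded oral mucosa, and 309 CPM in day 4 and 425 CPM in unwounded facial skin. UMIs are counted from the 3′ end and are not scaled by gene length, so levels are compared between sections and not between genes. Each spot may cover several cells, or part of a fibre, so fewer muscle fibres and less RNA per fibre cannot be told apart in any value below.

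**Figure D1:**
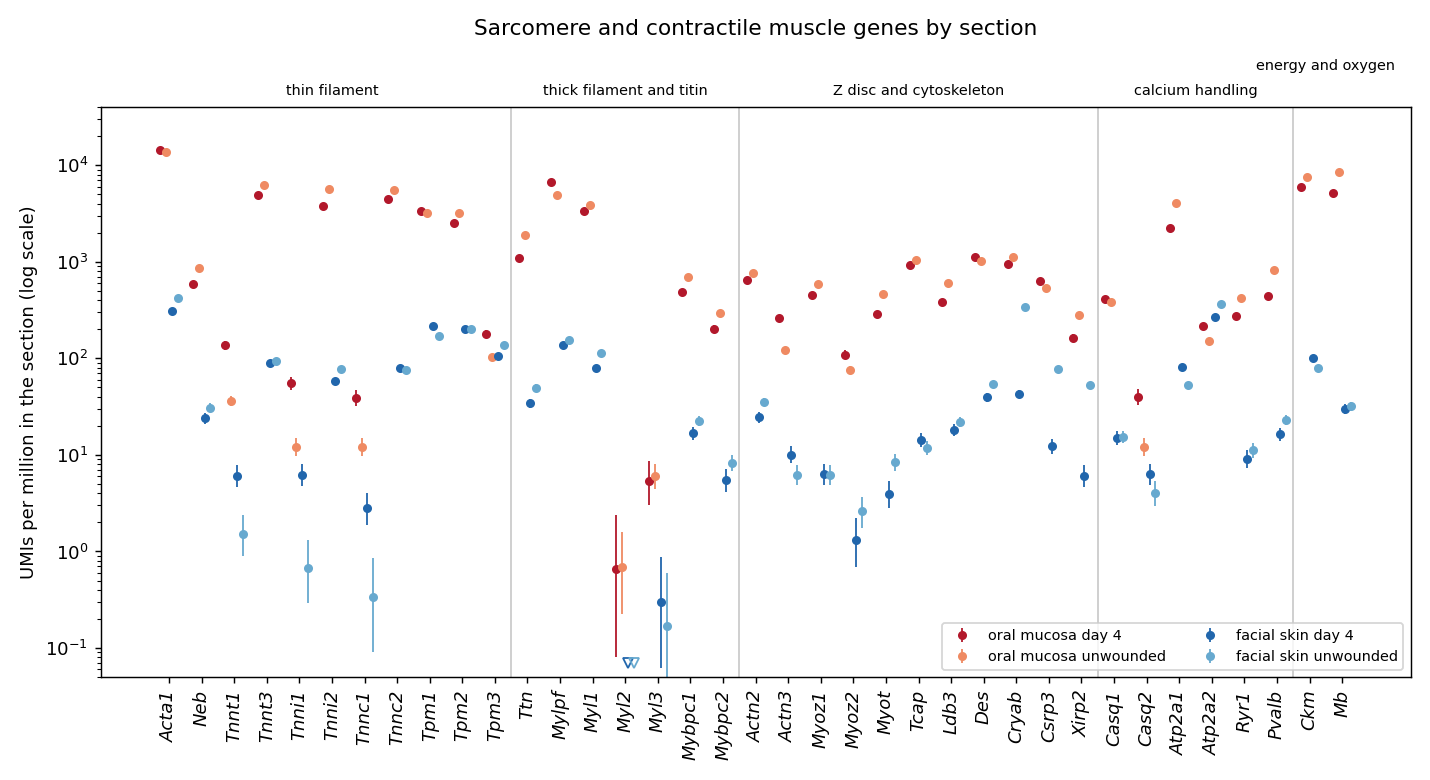
Level of each of the 37 genes in CPM of the section (log axis), with exact 95% Poisson intervals that cover counting error only; open triangles mark Myl2 at 0 UMIs in both facial sections. Points of both oral sections (reds) lie above those of both facial sections (blues) for nearly all genes, while Atp2a2 and Tpm3 lie close together in all 4 sections.

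Muscle was placed without the member genes, by the myosin heavy chain genes (Myh1, Myh2, Myh3, Myh4, Myh7, Myh8 and Myh13). Spots with at least 1000 UMIs and at least 0.5% of them in this list are called myosin-positive. There were 137 at day 4 and 349 unwounded for oral mucosa, and 12 at day 4 and 6 unwounded for facial skin. These spots held most member UMIs of the oral sections, 94.2% at day 4 and 94.7% unwounded, and 27.2% in day 4 and 56.5% in unwounded facial skin. Of all UMIs they held 45.7% and 66.6% in the day 4 and unwounded oral sections, but only 0.916% and 1.59% in the facial ones. Within them the members made 13.8% and 11.3% of UMIs in the day 4 and unwounded oral sections, and 6.16% and 9.86% in the day 4 and unwounded facial sections. Outside them the figures were 0.722%, 1.21%, 0.152% and 0.123% in the same order. Of the 37 genes, 29 in day 4 and 33 in unwounded oral mucosa had over 90% of their UMIs in myosin-positive spots, against 0 of the 36 detected genes in either facial section. The same count over all genes was not made, and the share of all UMIs in these spots differs between the tissues. The 6 spots of unwounded facial skin lay together in array rows 63 to 64 and columns 119 to 126, so its muscle values come from 1 small patch.

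Detection across spots had the same pattern, as far as depth allows. Acta1 had a UMI in 95.3% of spots in day 4 and 100% in unwounded oral mucosa, and in 38.8% in day 4 and 59.9% in unwounded facial skin. After each spot was thinned to 1000 UMIs the shares were 77.5%, 94.1%, 14.5% and 9.19%. In facial spots outside the myosin-positive ones, thinned, Acta1 was detected in 13.6% at day 4 and 8.35% unwounded, against 64.0% and 82.2% in such spots of the day 4 and unwounded oral sections. Myosin is itself low there, and spread of muscle RNA between spots was not tested.

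**Figure D2:**
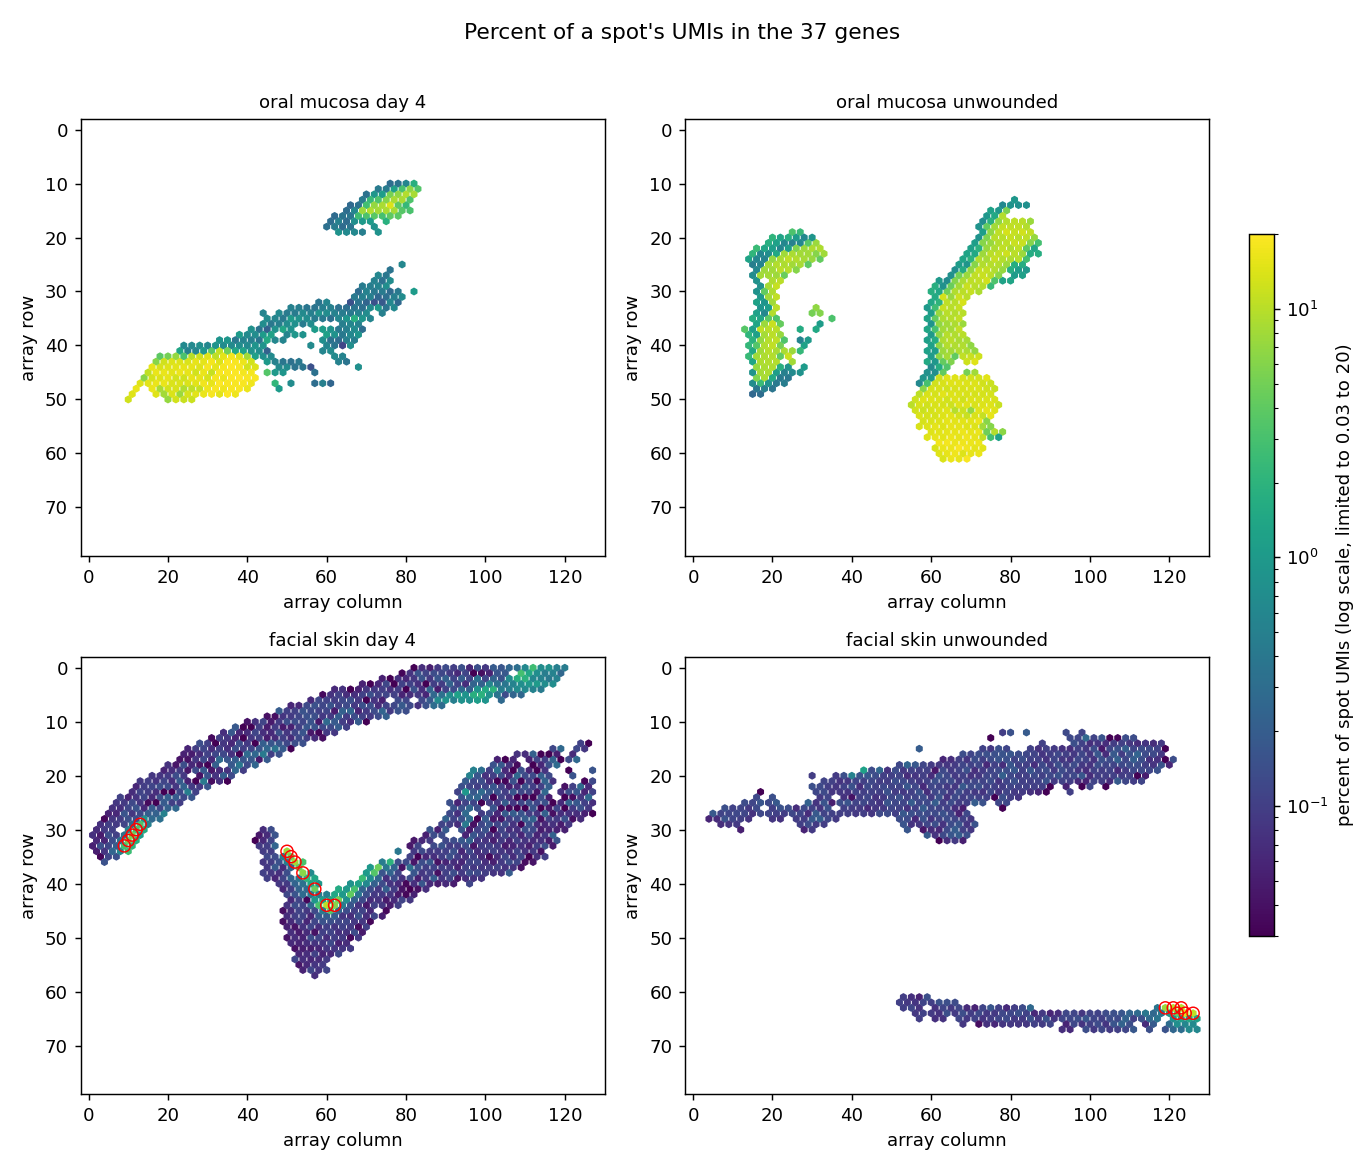
Percent of each spot's UMIs in the 37 genes, by array row and column, for the 4 sections, each with the scale shown beside it; red circles mark myosin-positive spots in the facial sections (12 at day 4 and 6 unwounded). In oral mucosa the genes fill broad fields of spots, and in facial skin they are high in a few spots.

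The slow troponins Tnnt1, Tnni1 and Tnnc1 were higher at day 4 in both tissues, and the results below turn on them. The 300 bases around their transcript starts are shown so that the regulatory sequence of these genes can be read beside their values, with the fast Tnnc2 for contrast. Each runs from 250 bases before the start to 50 after it, 5′ to 3′ on the gene's strand, from RefSeq on GRCm38.p6. Capitals mark E-boxes (CANNTG, the motif that myogenic factors of the MyoD family bind) and the M-CAT motif (CATTCC, or GGAATG read on the other strand, bound by TEAD factors). Tnnt1 encodes slow troponin T (chromosome 7, 4504569 to 4515975). Its promoter, chr7:4515926-4516225 on the minus strand, holds 2 E-boxes. Tnni1 encodes slow troponin I (chromosome 1, 135783033 to 135810989). Its promoter, chr1:135799171-135799470 on the plus strand, is the first of 2 in the table and holds 4 E-boxes. Tnnc1 encodes troponin C of slow and cardiac muscle (chromosome 14, 31208312 to 31211729). Its promoter, chr14:31208062-31208361 on the plus strand, holds 2 E-boxes and 1 M-CAT motif. Tnnc2 encodes fast troponin C (chromosome 2, 164777161 to 164779734). Its promoter, chr2:164779685-164779984 on the minus strand, holds 2 E-boxes.
Tnnt1: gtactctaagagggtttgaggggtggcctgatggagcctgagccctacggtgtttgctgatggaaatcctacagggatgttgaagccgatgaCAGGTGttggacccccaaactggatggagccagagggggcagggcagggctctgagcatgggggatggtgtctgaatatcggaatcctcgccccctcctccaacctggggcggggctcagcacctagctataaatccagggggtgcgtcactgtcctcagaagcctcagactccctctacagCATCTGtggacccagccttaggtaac
Tnni1: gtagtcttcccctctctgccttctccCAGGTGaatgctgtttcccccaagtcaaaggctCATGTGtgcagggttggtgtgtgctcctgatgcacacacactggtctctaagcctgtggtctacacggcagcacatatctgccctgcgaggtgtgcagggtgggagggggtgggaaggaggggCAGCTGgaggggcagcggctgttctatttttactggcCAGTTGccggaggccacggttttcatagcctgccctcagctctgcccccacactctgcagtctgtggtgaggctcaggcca
Tnnc1: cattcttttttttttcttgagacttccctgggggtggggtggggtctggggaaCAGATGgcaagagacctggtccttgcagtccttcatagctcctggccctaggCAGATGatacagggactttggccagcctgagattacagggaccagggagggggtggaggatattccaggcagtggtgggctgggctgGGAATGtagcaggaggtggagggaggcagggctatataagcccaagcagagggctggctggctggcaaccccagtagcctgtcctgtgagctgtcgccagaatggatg
Tnnc2: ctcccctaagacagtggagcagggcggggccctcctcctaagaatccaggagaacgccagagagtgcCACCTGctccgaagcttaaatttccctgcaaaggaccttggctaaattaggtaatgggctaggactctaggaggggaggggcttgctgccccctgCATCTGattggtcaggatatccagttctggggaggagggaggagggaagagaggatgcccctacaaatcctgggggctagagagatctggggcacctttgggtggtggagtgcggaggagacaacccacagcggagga

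Over all members, 28 of 37 matched a promoter and 9 did not. On either strand, an E-box stood in 25 of the 28 (89.3%), against 72.1% of 27025 promoters of this length, and an M-CAT motif in 7 (25%), against 14.6%. The consensus of MEF2, a muscle transcription factor, stood in 5 (17.9%), against 3.26%, and the CArG box, which serum response factor binds, in 3 (10.7%), against 1.57%. Motifs can overlap and a match describes the letters of the window only. E-boxes stood in 7 of the 7 matched promoters of fast isoforms and 10 of the 10 of slow isoforms, and the MEF2 consensus in 0 and 2 of them.

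Oral mucosa at day 4 against unwounded oral mucosa asks how the muscle transcripts of a wounded mouth differed. The 3 slow troponins, Casq2, Tpm3 and the fast Actn3 were higher at day 4, while titin, myoglobin, the fast calcium pump and 6 other genes were lower. The rule for a call asked for 20 or more UMIs over the pair of sections, a difference of 1.5-fold or more, and Poisson intervals that did not overlap. By this rule 6 of 36 measured members were higher and 9 lower, against a background of 20.6% of all 12544 measured genes higher and 3.56% lower. The median log2 ratio over the 37 members, with 10 CPM added to both sides, was -0.24, beside 0.18 over all genes with at least 100 UMIs. The summed member level was 1.18-fold lower. With 1 section per group no test across animals is possible, and intervals in all comparisons cover counting error only.

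Among thin filament genes, 4 of 11 were higher and 1 lower. Tnnt1 had 136 CPM (410 UMIs) at day 4 and 36.5 CPM (266 UMIs) unwounded, a log2 ratio of 1.90 (95% interval 1.68 to 2.13). Tnni1 had 55.3 CPM (166 UMIs) at day 4 and 12.1 CPM (88 UMIs) unwounded, a log2 ratio of 2.19 (1.81 to 2.58). Tnnc1 had 39.3 CPM (118 UMIs) at day 4 and 12.1 CPM (88 UMIs) unwounded, a log2 ratio of 1.70 (1.29 to 2.12). All 3 slow troponins were thus between 3.25-fold and 4.57-fold higher at day 4. They were higher in each of 13 other settings tried, with the lowest log2 ratios at 1.28 for Tnnt1, 0.95 for Tnni1 and 0.94 for Tnnc1. Over the whole sections their fast partners lay the other way by smaller amounts, which did not hold in the muscle-rich spots described below. Fast troponin T, Tnnt3, had 4962 CPM at day 4 and 6273 CPM unwounded. Fast troponin I, Tnni2, had 3821 CPM at day 4 and 5733 CPM unwounded, and passed the rule as lower, right at its limit of 1.5-fold. Fast troponin C, Tnnc2, had 4469 CPM at day 4 and 5499 CPM unwounded. Of the tropomyosins, which lie along the thin filament, Tpm3 was 1.75-fold higher, with 179 CPM at day 4 and 103 CPM unwounded. Tpm1 had 3359 CPM at day 4 and 3180 CPM unwounded, and Tpm2 2524 and 3188 CPM. Nebulin, Neb, the ruler of the thin filament, had 587 CPM at day 4 and 865 CPM unwounded, a fold of 1.47 that missed the rule.

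Thick filament genes were lower or near their unwounded level. Titin, Ttn, the giant spring that joins Z disc and thick filament, was 1.74-fold lower, with 1087 CPM at day 4 and 1893 CPM unwounded. The fast regulatory light chain Mylpf had 6689 CPM at day 4 and 4959 CPM unwounded, 1.35-fold apart, and the fast essential light chain Myl1 had 3365 and 3936 CPM. The slow light chains were nearly absent. Myl2 had 2 UMIs at day 4 and 5 unwounded, and Myl3 had 16 and 44 UMIs (log2 ratio -0.18, -1.11 to 0.67). No difference in the slow light chains was detectable at this depth. Myosin binding protein C of slow muscle, Mybpc1, had 482 CPM at day 4 and 705 CPM unwounded, and that of fast muscle, Mybpc2, 203 and 296 CPM.

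At the Z disc 1 of 11 genes was higher and 3 were lower. Actn3, the alpha-actinin of fast fibres that crosslinks actin, had 265 CPM at day 4 and 122 CPM unwounded, a log2 ratio of 1.12 (0.98 to 1.25). Its more general partner Actn2 had 653 CPM at day 4 and 773 CPM unwounded. Here a fast isoform was the higher one, so fast and slow genes did not separate by direction. Myotilin, Myot, was 1.61-fold lower with 292 CPM at day 4 and 471 CPM unwounded, and the PDZ-LIM protein Ldb3 1.59-fold lower with 383 and 608 CPM. Xirp2, which binds actin at muscle junctions, was 1.73-fold lower with 164 CPM at day 4 and 285 CPM unwounded. The remaining genes of this group, the calsarcins Myoz1 and Myoz2, telethonin Tcap, desmin Des, the chaperone Cryab and the muscle LIM protein Csrp3, missed the rule, at 1.11-fold to 1.44-fold.

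Of the calcium handling genes 1 of 6 was higher and 3 lower. Casq2, the calsequestrin of slow and cardiac muscle that stores calcium in the reticulum, had 39.9 CPM (120 UMIs) at day 4 and 12.2 CPM (89 UMIs) unwounded, 3.27-fold higher (log2 ratio 1.71). Casq1, the fast form, had 414 CPM at day 4 and 387 CPM unwounded. The fast calcium pump Atp2a1 (SERCA1) had 2223 CPM at day 4 and 4078 CPM unwounded, a log2 ratio of -0.88 (-0.91 to -0.84). The calcium buffer of fast fibres, parvalbumin (Pvalb), was 1.87-fold lower with 440 CPM at day 4 and 821 CPM unwounded. The release channel Ryr1 was 1.56-fold lower with 274 and 427 CPM. Myoglobin, Mb, which stores oxygen, was 1.68-fold lower with 5127 CPM at day 4 and 8596 CPM unwounded, while muscle creatine kinase, Ckm, had 5917 and 7665 CPM.

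Limiting the oral comparison to myosin-positive spots, which gives the make-up of muscle-rich tissue, changed the picture. There 13 of 36 members were higher and 0 lower, against a background of 5.61% and 5.81% of genes. Tnnt1 was 4.92-fold, Tnni1 4.88-fold, Casq2 3.76-fold, Tnnc1 3.66-fold, Actn3 2.96-fold, Myoz2 2.10-fold, Tpm3 2.08-fold and Mylpf 1.97-fold higher. Csrp3, Des, Casq1, Acta1 and Tpm1 were 1.51-fold to 1.70-fold higher, and Acta1 had 30182 CPM at day 4 and 19772 CPM unwounded there. Atp2a1, lower over the whole sections, was 1.26-fold lower in these spots and missed the rule. The fast troponins were not called in these spots. Tnnt3 had 10409 CPM at day 4 and 8923 CPM unwounded there, Tnnc2 9378 and 7853 CPM, and Tnni2 7998 and 8168 CPM. Keratinocyte markers held 5540 CPM of the day 4 myosin-positive spots and 21124 CPM of the unwounded ones, neutrophil markers 275 and 23.1 CPM, and salivary gland markers 375 and 24.3 CPM, and their part in these values was not tested. As a percent of member UMIs, the make-up of the muscle transcripts alone, Tnnt1 was 0.203% at day 4 and 0.046% unwounded, Mylpf 9.96% and 6.25%, Atp2a1 3.31% and 5.14%, and Mb 7.63% and 10.8%.

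Over the whole sections the counts depended on single parts of them. Without part 3 of the day 4 section (high rows and low columns, the location of 86.3% of its member UMIs) 29 members were lower, and leaving out part 3 of unwounded oral mucosa gave 18 lower, and without its part 4 13 were higher and 0 lower. Without part 2 of the day 4 section 11 were higher and 1 lower, and without its part 1 5 were lower. Without neutrophil-rich spots 5 were lower. TMM scaling gave 5 higher and 17 lower. The share of all genes called was not counted in these settings, so these counts have no background beside them.

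**Figure D3:**
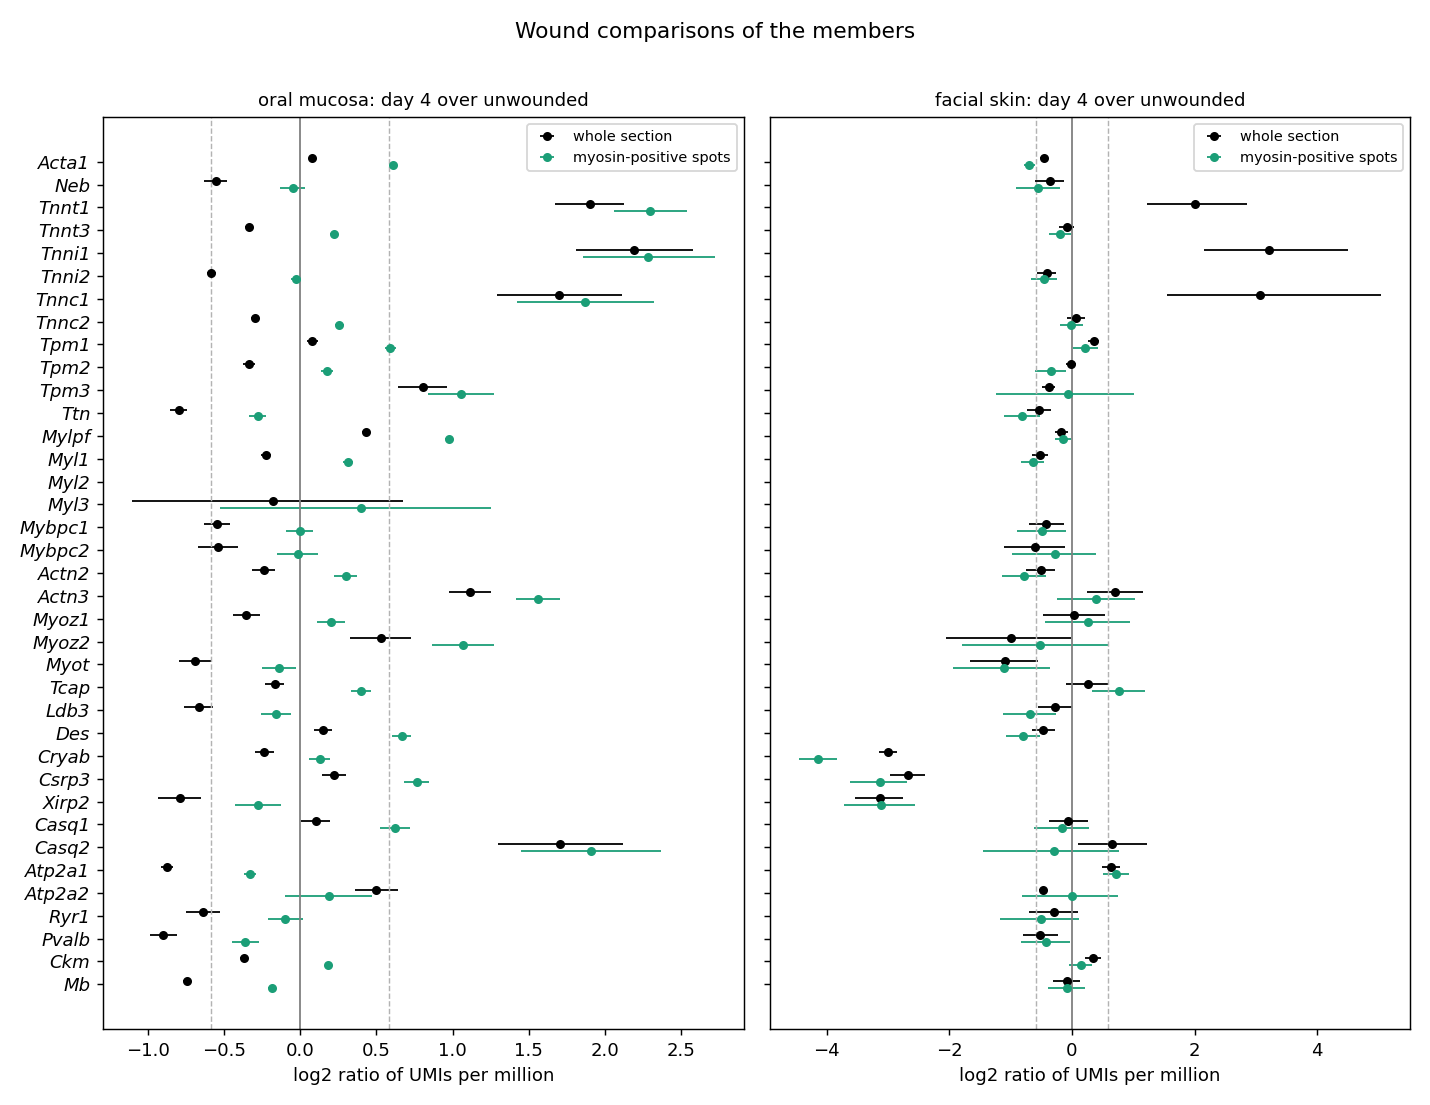
Log2 ratio of day 4 over unwounded CPM for each member in oral mucosa and facial skin, with 95% counting intervals; black is the whole section, green the myosin-positive spots, and dashed lines mark 1.5-fold. The slow troponins lie right of 0 in both tissues, while Cryab, Csrp3 and Xirp2 lie far left in facial skin.

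Facial skin at day 4 against unwounded facial skin gave higher slow troponins again, with a group of stress and Z disc genes lower. Of 35 measured members 5 were higher and 4 lower, against a background of 6.09% of 14231 genes higher and 8.59% lower. The median log2 ratio, taken the same way, was -0.16 for the members, beside -0.04 for all such genes, and the summed member level was 1.34-fold lower. The UMIs behind these values were few, and those of unwounded skin came largely from the 1 patch named above.

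Tnnt1 had 6.04 CPM (60 UMIs) at day 4 and 1.51 CPM (18 UMIs) unwounded, a log2 ratio of 2.00 (1.22 to 2.85). Tnni1 had 6.24 CPM (62 UMIs) at day 4 and 0.670 CPM (8 UMIs) unwounded, a log2 ratio of 3.22 (2.15 to 4.49). Tnnc1 had 2.82 CPM (28 UMIs) at day 4 and 0.335 CPM (4 UMIs) unwounded, a log2 ratio of 3.07 (1.56 to 5.04). All 3 were higher at day 4, and in each of 14 other settings, with the lowest log2 ratios at 1.52, 2.61 and 2.50. Their fast partners were close between the sections. Tnnt3 had 89.0 CPM at day 4 and 94.6 CPM unwounded, Tnni2 57.8 and 76.9 CPM, and Tnnc2 had 785 and 902 UMIs, 1.05-fold apart in CPM. Myl2 had 0 UMIs in both facial sections, and the exact 95% Poisson upper limit was 0.371 CPM at day 4 and 0.309 CPM unwounded, and Myl3 had 3 and 2 UMIs.

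Actn3 was higher in facial skin too, with 10.1 CPM (100 UMIs) at day 4 and 6.20 CPM (74 UMIs) unwounded, a log2 ratio of 0.70 (0.25 to 1.15). Atp2a1, lower at day 4 in oral mucosa, was higher at day 4 in facial skin, with 81.7 CPM at day 4 and 52.7 CPM unwounded, a log2 ratio of 0.63 (0.48 to 0.79). Without part 3 of the day 4 facial section that ratio was -0.68, so its direction rests on that part, which held all 12 myosin-positive spots.

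The genes lower at day 4 were Cryab, Csrp3, Xirp2 and Myot. Cryab encodes alpha-B crystallin, a small heat shock protein that protects desmin and titin. It had 42.8 CPM (425 UMIs) at day 4 and 343 CPM (4091 UMIs) unwounded, a log2 ratio of -3.00 (-3.15 to -2.86). Csrp3 had 12.3 CPM (122 UMIs) at day 4 and 78.6 CPM (938 UMIs) unwounded, a log2 ratio of -2.68 (-2.96 to -2.40). Xirp2 had 6.04 CPM (60 UMIs) at day 4 and 52.9 CPM (632 UMIs) unwounded, a log2 ratio of -3.13 (-3.54 to -2.75). These 3 genes were thus 6.40-fold to 8.76-fold lower at day 4, or high in the unwounded patch. Cryab made 2.06% of member UMIs at day 4 and 12.4% unwounded in facial skin, against 1.42% in both oral sections. Myot, at 3.93 CPM at day 4 and 8.38 CPM unwounded, was 2.13-fold lower.

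A single spot of unwounded facial skin held 2371 of the 4091 Cryab UMIs (58.0%), out of 49868 UMIs in the spot. It also held 466 UMIs of Csrp3, 154 of Xirp2 and 1376 of Acta1. Without it the 3 genes were still lower at day 4, Cryab 3.38-fold, Csrp3 3.23-fold and Xirp2 6.66-fold. The values by spot are given as a description. In myosin-positive spots Cryab ranged from 219 to 1692 CPM (median 656) in the 12 day 4 spots and from 2136 to 47546 CPM (median 5562) in the 6 unwounded spots. Csrp3 ranged from 0 to 967 CPM (median 416) at day 4 and from 1368 to 9345 CPM (median 2238) unwounded. Xirp2 ranged from 0 to 842 CPM (median 269) at day 4 and from 1135 to 5815 CPM (median 2148) unwounded. The spots of both sections did not overlap for any of the 3 genes. Myot, also called lower, did overlap, with 0 to 551 CPM at day 4 and 200 to 952 CPM unwounded. The share of all genes without overlap was not counted, and the spots of a section are not replicates. Median depth was 6403 UMIs in the day 4 spots and 29382 UMIs in the unwounded spots. Oral myosin-positive spots had a Cryab median of 1483 CPM at day 4 and 1394 CPM unwounded, between the medians of both facial sections. For Acta1 the facial spots overlapped, with 6762 to 18004 CPM (median 11619) at day 4 and 12180 to 27593 CPM (median 20903) unwounded. In these 6 unwounded spots the neutrophil list held 469 CPM, against 22.0 CPM in the day 4 spots, and the macrophage list 2901 CPM, against 1747 CPM. Their part in the result was not tested, and no neutrophil-rich spot was myosin-positive.

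Within myosin-positive spots 2 of 32 measured members were higher at day 4 in facial skin and 10 lower, against a background of 6.79% and 5.91% of genes. Tcap and Atp2a1 were 1.70-fold and 1.65-fold higher. Cryab was 17.6-fold, Csrp3 8.79-fold and Xirp2 8.66-fold lower, and Myot, Ttn, Des, Actn2, Acta1, Ldb3 and Myl1 were 1.56-fold to 2.16-fold lower. Without neutrophil-rich spots 3 were higher and 11 lower over the section, and without part 3 of the day 4 section 2 and 26. When part 4 of unwounded facial skin, which holds its patch, was left out, 28 members were higher at day 4 and 0 lower over the section. The Csrp3 and Xirp2 ratios then turned to 0.45 and 0.18. With parts or neutrophil-rich spots left out, the share of all genes called was not counted.

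Oral mucosa and facial skin were then compared, unwounded and at day 4, to see how muscle transcripts differed by site. In both comparisons nearly every member was higher in oral mucosa. In unwounded tissue 34 of 36 members were higher and 1 lower, against a background of 10.1% and 59.7% of 14026 genes, and at day 4 34 of 35 were higher and 0 lower, against 11.5% and 35.5% of 13633 genes. The median member log2 ratio was 4.14 unwounded and 4.14 at day 4, beside -0.60 and -0.36 over all genes with at least 100 UMIs. The summed member level was 28.6-fold higher in unwounded and 32.4-fold higher in day 4 oral mucosa.

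Mb stood out in both comparisons. In unwounded tissue it had 8596 CPM in oral mucosa and 31.8 CPM in facial skin, a 270-fold difference, and at day 4 it had 5127 and 30.0 CPM, a 171-fold difference. Ckm was 96.6-fold, Myoz1 94.2-fold, Tcap 87.2-fold, Atp2a1 77.4-fold and Tnni2 74.6-fold higher in unwounded oral mucosa. The smallest folds among the genes higher there were 3.04 for Casq2, 3.28 for Cryab, 5.39 for Xirp2 and 6.88 for Csrp3. The last 3 of these are the genes that were high in the unwounded facial patch. At day 4 Myoz2 was 83.9-fold, Myot 74.3-fold, Myoz1 72.0-fold and Tnni2 66.1-fold higher in oral mucosa.

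In myosin-positive spots the differences were smaller for many members, with the largest fold at day 4 for Mb. For Cryab, Casq2 and Xirp2 the unwounded differences were larger there and turned the other way. In unwounded tissue 12 members were higher in oral mucosa and 7 lower, against a background of 4.28% and 21.9% of genes, and at day 4 18 were higher and 1 lower, against 3.85% and 22.2%. Mb was 8.23-fold higher unwounded and 7.68-fold higher at day 4 in these spots. These spots also differed in markers of other cells. Unwounded, keratinocyte markers held 21124 CPM in oral and 2595 CPM in facial spots, fibroblast markers 1365 and 15488 CPM, and macrophage markers 192 and 2901 CPM. At day 4 fibroblast markers held 2822 CPM in oral and 13034 CPM in facial spots, and macrophage markers 462 and 1747 CPM. Their part in the differences was not tested. Myoz1, Ckm, Tcap, Atp2a1, Tnni2 and Tnnc2 were 2.12-fold to 3.06-fold higher in unwounded oral muscle spots. Acta1 (with 19772 CPM in oral and 21059 CPM in facial unwounded muscle spots), Myl1 and Pvalb differed by 1.03-fold to 1.08-fold between the tissues. Cryab was 11.3-fold, Casq2 9.07-fold, Xirp2 6.74-fold and Csrp3 5.38-fold lower in unwounded oral than in unwounded facial muscle spots. At day 4 Cryab was 1.69-fold and Csrp3 2.77-fold higher in oral muscle spots, and Atp2a2 was 2.46-fold lower.

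Atp2a2 and Tpm3 did not follow the other members. Atp2a2 (SERCA2) is the calcium pump of slow and cardiac muscle and of many non-muscle cells, and Tpm3 encodes both a slow-muscle tropomyosin and widely expressed forms. Atp2a2 had 216 CPM at day 4 and 153 CPM unwounded in oral mucosa, and 266 CPM at day 4 and 369 CPM unwounded in facial skin. It was 2.42-fold lower in unwounded oral mucosa than in unwounded facial skin, the only member called lower there. Tpm3 had 105 CPM in day 4 and 137 CPM in unwounded facial skin, and was 1.34-fold lower in unwounded and 1.70-fold higher in day 4 oral mucosa. Of their UMIs, 20.8% of Atp2a2 and 51.8% of Tpm3 lay in myosin-positive spots in day 4 oral mucosa, 37.6% and 63.3% in unwounded oral mucosa, and 0.831% to 1.46% in the facial sections. Across oral spots Atp2a2 had a Spearman correlation of -0.38 (365 spots, day 4) and -0.42 (523 spots, unwounded) with the myosin share, and of 0.30 and 0.34 with the keratinocyte share. These correlations are descriptions, since shares within a spot constrain each other. In facial skin Tpm1 and Tpm2 also lay mostly elsewhere, with 14.5% and 9.01% of UMIs in myosin-positive spots at day 4 and 27.6% and 19.6% unwounded. This was common there, since 34 of the 36 detected members had 50% or less at day 4 (median 36.2%) and 8 of 36 unwounded (median 74.7%). Pairs that hold Atp2a2 or Tpm3 are therefore given apart.

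Fast and slow isoforms were compared as pairs within a section, which does not depend on how sections are scaled. The 5 core pairs were the troponins T, I and C and both light chains (Mylpf with Myl2, Myl1 with Myl3), whose genes are largely restricted to striated muscle. By the UMIs of these 5 pairs all 4 sections were overwhelmingly fast, though UMIs are not scaled between genes and other pairs below differ. The slow member made 1.01% of core UMIs in day 4 oral mucosa (712 slow and 70016 fast UMIs, exact 95% binomial interval 0.934% to 1.08%). It made 0.255% in unwounded oral mucosa (491 and 192317, 0.233% to 0.278%). In facial skin it made 3.37% at day 4 (153 and 4382, 2.87% to 3.94%) and 0.518% unwounded (32 and 6142, 0.355% to 0.731%). The slow percent was higher at day 4 than unwounded within each tissue, and lower in oral mucosa at each stage. The log2 difference in the fast to slow ratio was -1.99 (-2.16 to -1.83) for day 4 over unwounded oral mucosa and -2.74 (-3.30 to -2.19) for day 4 over unwounded facial skin. It was 1.03 (0.51 to 1.55) for oral over facial tissue unwounded and 1.78 (1.52 to 2.04) at day 4. Without part 3 of day 4 oral mucosa the last value turned to -0.35. The oral wound value was -1.14 without part 2 of the day 4 section, and the facial wound value -0.31 without part 4 of the unwounded section. In myosin-positive spots slow and fast UMIs were 558 and 66763 at day 4 and 458 and 182519 unwounded in oral mucosa, and the slow percent was 1.99% at day 4 and 0.0828% unwounded in facial skin. The last value rests on 4 slow UMIs, and there the unwounded difference between tissues turned to -1.60.

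**Figure D4:**
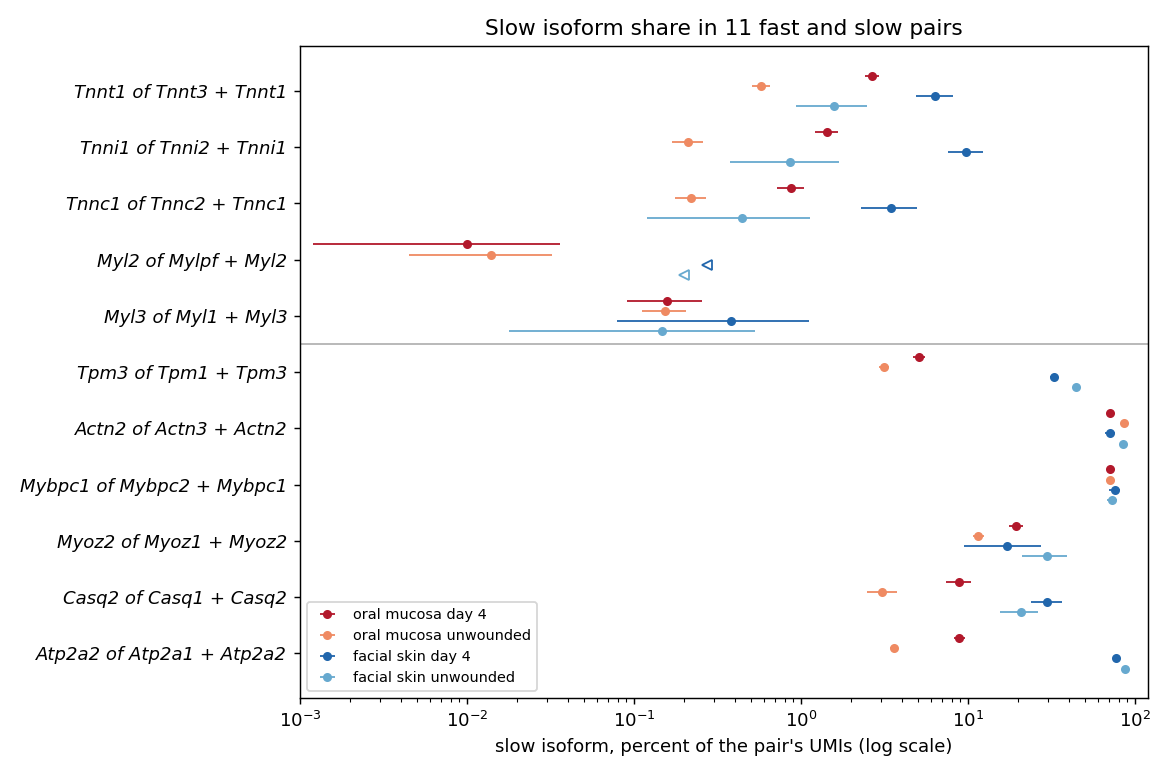
Slow member's percent of each pair's UMIs in the 4 sections (log axis) for 11 pairs, with exact 95% binomial intervals; left-pointing triangles are upper bounds for 0 slow UMIs. The 3 troponin pairs have higher slow percents at day 4 than unwounded in each tissue, while the light chain pairs stay below 1%.

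The troponin pairs differed by wound in each tissue. Tnnt1 made 2.68% of its pair in day 4 and 0.579% in unwounded oral mucosa, and 6.36% in day 4 and 1.57% in unwounded facial skin. Tnni1 made 1.43% and 0.210% in oral mucosa, and 9.75% and 0.864% in facial skin. Tnnc1 made 0.871% and 0.219% in oral mucosa, and 3.44% and 0.442% in facial skin. The light chain pairs rested on few slow UMIs. Myl3 made 0.158% at day 4 and 0.153% unwounded in oral mucosa, and 0.382% and 0.147% in facial skin on 3 and 2 UMIs. Together the light chains gave a log2 fast to slow difference of 0.34 (-0.44 to 1.12) in oral mucosa, against -2.33 (-2.50 to -2.16) for the troponins. In facial skin they gave -1.16 (-3.74 to 1.42), against -2.72 (-3.29 to -2.15), and this depth cannot show whether they differ from the troponins there.

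Among the other pairs the direction varied. Casq2 made 8.79% of calsequestrin UMIs in day 4 and 3.06% in unwounded oral mucosa, and 29.9% in day 4 and 20.6% in unwounded facial skin. Myoz2 made 19.4% at day 4 and 11.5% unwounded in oral mucosa, but 17.1% and 29.5% in facial skin. Actn2 made 71.1% at day 4 and 86.3% unwounded in oral mucosa, and 71.0% and 85.0% in facial skin, so the fast Actn3 had the larger share at day 4 in each tissue. Mybpc1 was at 70.3% and 70.4% in oral mucosa and 75.6% and 73.0% in facial skin. Tpm3 made 5.07% and 3.13% of its pair in oral mucosa and 32.5% and 44.5% in facial skin, and Atp2a2 8.86% and 3.61%, and 76.5% and 87.5%. Over all 11 pairs the slow members made 5.97% of UMIs in day 4 and 5.11% in unwounded oral mucosa. In facial skin they made 35.9% at day 4 and 42.5% unwounded, and 8.43% and 9.57% in myosin-positive spots. The fast to slow difference of day 4 over unwounded across the 11 pairs was -0.24 in oral mucosa and 0.40 in facial skin.

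The slow percent varied widely between spots. Spots with 50 or more core UMIs numbered 140 (day 4) and 405 (unwounded) for oral mucosa, and 19 (day 4) and 8 (unwounded) for facial skin. In the same order the median slow percent was 0.238%, 0%, 0.893% and 0%. The highest spot stood at 27.5% in day 4 and 22.8% in unwounded oral mucosa, and at 7.69% in day 4 and 1.69% in unwounded facial skin. Spots over 5% slow numbered 10, 4, 5 and 0. As a description of spots chosen for this percent, shares were taken of the slow UMIs in spots with 50 or more core UMIs. Spots over 5% slow held 34.8% in day 4 and 30.1% in unwounded oral mucosa, so most slow UMIs of oral mucosa lay outside them. They held 88.7% in day 4 facial skin, with 13 slow UMIs in 3 spots and 50 in 2 spots. That whole section had 153 slow core UMIs, so most of those lay outside them too. The slow percent of a spot went with the mean of its adjacent spots in day 4 oral mucosa (Spearman 0.70 over 139 spots) and less so in unwounded oral mucosa (0.28 over 404 spots), as a description of spots that share a library.

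These slow-rich spots were of different make-up in different places. In day 4 oral mucosa 7 lay in array rows 11 to 15 and columns 78 to 81, with 5.26% to 27.5% slow. They held 41 UMIs of Tnnt1, 41 of Tnni1, 20 of Tnnc1 and 31 of Casq2, but 0 of Myl2 and Myl3. Embryonic myosin, Myh3, had 51 UMIs, in all 7 spots, and the slow myosin Myh7 had 0. A second set of 3 spots lay in rows 48 to 49 and columns 23 to 26 of the same section, with 17.4% to 24.2% slow. It held 51 UMIs of Tnnt1, 11 of Tnni1, 33 of Tnnc1, 9 of Myl3, 2 of Myl2 and 174 of Tpm3, with 13 of Myh7 and 4 of Myh3. The first set thus had slow troponins with some embryonic myosin, and the second had them with slow light chains, Tpm3 and some slow myosin. Other myosins had more UMIs in both sets. In the first, the fast adult Myh1 had 269 of 446 myosin UMIs. In the second, the fast adult Myh2 had 43 and the perinatal Myh8 20 of 139. Myh8 did not divide the sets, at 124 UMIs per 10000 member UMIs in each.

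In unwounded oral mucosa the 4 slow-rich spots, in rows 45 to 53 and columns 66 to 71, were like the second set, with 71 UMIs of Tnnt1, 23 of Tnni1, 34 of Tnnc1, 16 of Myl3, 116 of Tpm3, 9 of Myh7 and 4 of Myh3. In day 4 facial skin the 5 slow-rich spots had 0 UMIs of Myl3 and of Myh7. Of them, 2 in rows 43 to 44, at 5.55% to 5.99% slow, held 19 UMIs of Tnnt1, 22 of Tnni1, 9 of Tnnc1, 14 of Casq2 and 21 of Myh3, like the first oral set. The other 3, in rows 0 to 5, at 5.77% to 7.69% slow, held 3 UMIs of Tnnt1, 8 of Tnni1, 2 of Tnnc1, 10 of Casq2 and 10 of Myh3. No spot of unwounded facial skin was over 5% slow.

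**Figure D5:**
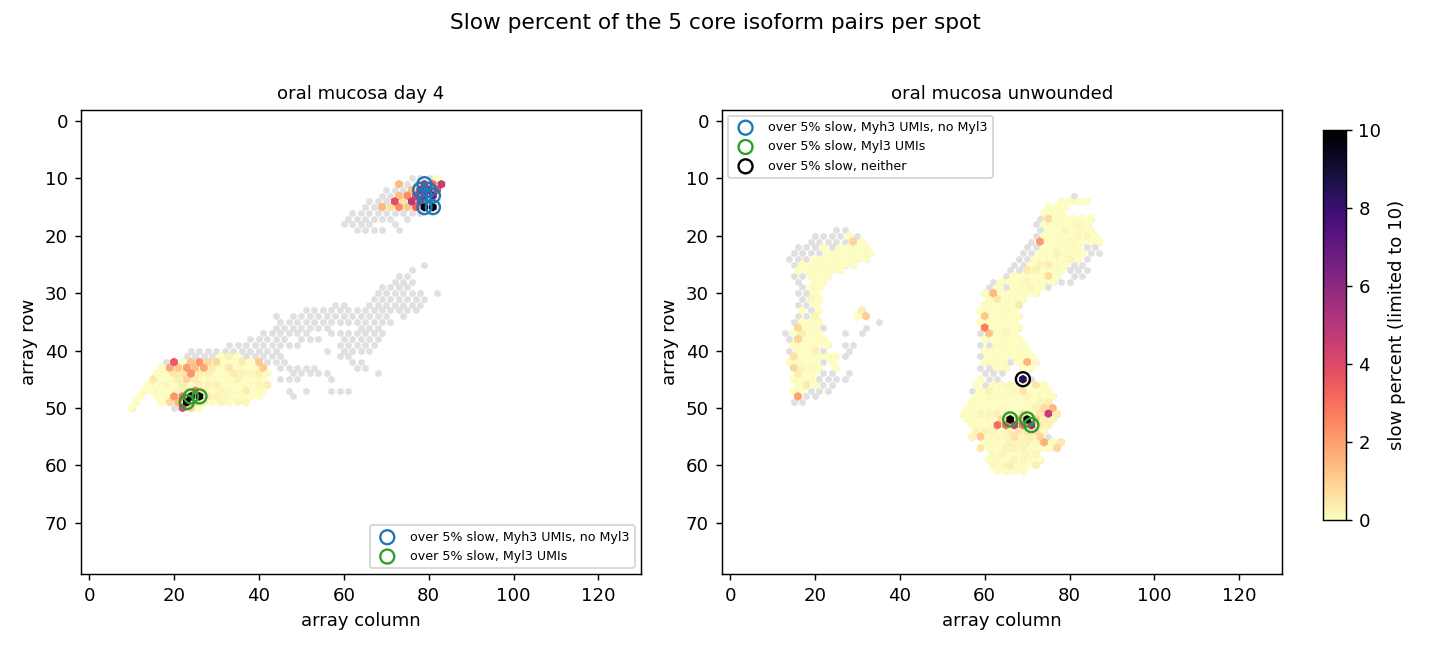
Slow percent of core fast plus slow UMIs in each spot with at least 50 such UMIs, by array row and column in both oral sections. Grey spots have fewer. Rings mark spots over 5% slow, blue with Myh3 and no Myl3, green with Myl3 and black with neither. Blue rings are found in the day 4 section and green rings in both sections.

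Myosin heavy chains, which are not members, also differed by section and by place. Myh3 was 61.7-fold higher at day 4 in oral mucosa (280 UMIs at day 4 and 11 unwounded) and had 86 UMIs at day 4 and 1 unwounded in facial skin. In day 4 oral spots with at least 50 core UMIs, part 2 (25 spots, low rows and high columns) was 3.90% slow and part 3 (115 spots) 0.535%. Myh3 made 6.57% of myosin UMIs in part 2 and 0.0722% in part 3, Myh1, a fast adult myosin, 70.3% and 17.2%, Myh2, another, 8.63% and 57.3%, and the perinatal Myh8 5.75% and 24.6%. Across 134 day 4 oral spots the slow percent had a Spearman correlation of 0.51 with the Myh3 percent, of -0.59 with the Myh8 percent and of 0.29 with the Myh7 percent. Of the 280 Myh3 UMIs of day 4 oral mucosa, 134 lay in its 137 myosin-positive spots. Among those spots, the 22 with a Myh3 UMI were 3.42% slow, with 319 slow and 9016 fast UMIs. The 115 without were 0.412% slow, with 239 and 57747. Spots outside the myosin-positive ones were not in this split.

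Splitting the 137 day 4 oral myosin-positive spots at the median of Myh3 plus Myh8 (18.9% of myosin UMIs) gave the opposite order. Myh8 gave most of that sum, with 2881 UMIs in the upper and 629 in the lower spots, against 49 and 85 of Myh3. The 68 upper spots were 0.373% slow and the 69 lower spots 1.42%, a log2 fast to slow difference of 1.95 (1.67 to 2.23). In the upper spots Mybpc2 was 2.97-fold, Pvalb 2.24-fold and Actn3 2.13-fold higher than in the lower spots, and Tnnt1 3.04-fold lower. Split by Myh3 alone the difference was -3.10. Without part 3 of the section the split by the sum gave -0.86, so its direction rests on that part. In unwounded oral mucosa the order was also the other way. There the median was 0%, so spots with a Myh3 or Myh8 UMI were set against spots with none. That split is unlike the one at day 4. The 161 upper spots were 0.403% slow and the 188 lower spots 0.0471%. Across 387 spots the slow percent had a Spearman correlation of 0.35 with the Myh8 percent and 0.17 with the Myh3 percent.

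Other muscle genes from lists that hold no member went several ways in the oral wound comparison, all against the background of 20.6% higher and 3.56% lower. Of 16 other sarcomere genes 5 were higher and 6 lower. The higher ones were led by the embryonic and atrial light chain Myl4 (15.5-fold), Tnnt2, the troponin T of heart and embryonic muscle (6.36-fold), cardiac actin Actc1 (5.33-fold) and Mybph, a myosin binding protein (3.70-fold). The M-band proteins Myom1 and Myom2, which crosslink thick filaments and were singled out after their values were seen, were 2.75-fold and 2.57-fold lower. Of 10 measured excitation-contraction coupling genes 0 were higher and 3 lower, with triadin, Trdn, 1.93-fold lower. Of 10 energy metabolism genes 0 were higher and 5 lower, with the fatty acid carrier Fabp3 2.27-fold lower and mitochondrial creatine kinase Ckmt2 2.17-fold lower. Of 9 measured myogenic regulators 7 were higher and 0 lower, among them Myog, with 135 UMIs at day 4 and 28 unwounded, and Mymk, which fuses myoblasts, with 80 and 7. Of 3 ubiquitin ligase genes of muscle atrophy, Trim63 (2.34-fold) and Fbxo32 (2.03-fold) were lower and Fbxo30 (1.84-fold) higher.

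In the facial wound comparison, with its background of 6.09% higher and 8.59% lower, 5 of the 16 other sarcomere genes were higher and 4 lower. Actc1 was 55.3-fold higher, with 414 UMIs at day 4 and 9 unwounded, and Myl4 13.7-fold higher, with 284 and 25 UMIs. Myom2 was 3.94-fold higher and Lmod3, which nucleates thin filaments, 3.61-fold higher. The lower genes, singled out after their values were seen, were Nrap (3.40-fold), Klhl41 (2.94-fold), Mybph (2.62-fold) and Synpo2l (2.37-fold). Of 10 coupling genes 1 was higher and 0 lower, of 10 energy genes 2 higher and 1 lower, and of 3 measured myogenic regulators 2 higher and 0 lower. Nppa, a hormone gene of heart muscle that was singled out, had 0 UMIs in all 4 sections. The list of 5 cardiac muscle genes that holds it, and also Myl4, was not absent. It summed to 298 CPM in day 4 and 23.3 CPM in unwounded oral mucosa, and to 33.5 and 7.45 CPM in facial skin. In each wound comparison 2 of the 5 were measured, with 1 higher and 0 lower.

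The genes most like the members across oral spots were mostly mitochondrial. Likeness was the mean over both oral sections of Pearson's r between log-scaled UMIs of a gene and of the member sum, among 3922 genes outside the members and lists. The leading genes were mt-Atp6 (0.934), mt-Co1 (0.922), mt-Cytb (0.913), mt-Nd4, mt-Co3, mt-Nd2 and mt-Nd1, then Hspb6 (0.888), mt-Co2 and Eef1a2 (0.883). Hspb6 encodes a small heat shock protein and Eef1a2 the elongation factor form of muscle and neurons. The points share libraries and depth, and these values are descriptions.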

How the data were processed

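The deposited values are UMI counts per gene and spot that the authors left unnormalized. Per the file headers they come from Space Ranger 1.3.1. Seurat and the genome mm10 are also named in the submitters' processing notes. The aligner is not given in the sources used here, nor is the annotation release. Each matrix holds spots under tissue only, out of 4992 on an array, and 32285 genes. Tissue images were not used.

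UMIs were summed per section and scaled to its total with Python 3.11.15, numpy 2.4.6, pandas 2.3.3 and scipy 1.17.1. CPM carry exact 95% Poisson intervals, ratios exact conditional intervals, pair shares exact binomial intervals and fast to slow differences Woolf intervals. All cover counting error only. For leave-one-out values a section was divided into 4 parts by the medians of its spots' rows and columns: part 1 has low rows and columns, part 2 low rows and high columns, part 3 high rows and low columns, and part 4 high rows and columns. TMM factors came from edgeR 4.0.16 in R 4.3.3. Doublets do not apply to spots. The calls were run on simulated Poisson counts with known folds, the model that the rule assumes. Those counts hold no spread between animals, sections or spots, so that run cannot show how calls between single sections would repeat.

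Any member could be named. From each other list up to 4 genes per comparison were named, largest log2 ratio first among those with at least 20 UMIs. The members, lists and rules were chosen with earlier results of these data known. Promoters came from a RefSeq table of GRCm38.p6, with the first entry used where a gene had several. Alternatives are given in the closing section.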

Additional observations from a re-analysis of the deposited data

Results flagged for a closer look

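Atp2a1, the fast calcium pump, lay on opposite sides of 0 in the 2 tissues. Its log2 ratio of day 4 over unwounded was -0.88 in oral mucosa and 0.63 in facial skin. Each tissue has 1 section per group, and the difference between the ratios was not tested. In myosin-positive spots the values were -0.33 and 0.72.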

How the results depend on the processing

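No paired analysis was possible because each group has 1 section and the labels give no replicate numbers. Counts are members higher and lower, and ratios are log2 differences in fast to slow UMIs. Shares of all genes called were counted for the whole sections and myosin-positive spots only, so counts under other settings have no background. Over 211 alternative values, 136 stayed close to the value reported, 68 moved and 7 changed sign; over 1948 values of single members, 908 stayed close, 1013 moved and 27 changed sign. The cause was not tested in any case below. TMM scaling shifted all log2 ratios by -0.34 (oral wound), 0.07 (facial wound), 0.76 (unwounded tissues) and 0.36 (day 4 tissues).

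Oral wound: TMM gave 17 lower, myosin-positive spots 13 higher and 0 lower, a 2-fold limit 0 lower, and leaving out neutrophil-rich spots, chosen after seeing the data, 5 lower. The ratio was -0.24 over 11 pairs, -2.33 for troponins, 0.34 for light chains and -1.74 in myosin-positive spots. Facial wound: myosin-positive spots gave 2 higher and 10 lower, a 2-fold limit 3 higher, a minimum of 100 UMIs 2 higher, and leaving out neutrophil-rich spots 3 higher and 11 lower. The ratio was 0.40 over 11 pairs, -1.16 for light chains and -4.61 in myosin-positive spots. Unwounded oral against facial: TMM gave 0 lower, and myosin-positive spots 12 higher and 7 lower. The ratio was 3.78 over 11 pairs, 1.55 for troponins, -0.27 for light chains and -1.60 in myosin-positive spots. Day 4 oral against facial: myosin-positive spots gave 18 higher and 1 lower, and the ratio was 3.14 over 11 pairs, 1.23 for light chains and 1.28 in myosin-positive spots.

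Leaving out each section part in turn gave 6 to 13 higher and 0 to 29 lower (oral wound), 2 to 28 and 0 to 26 (facial wound), 31 to 34 and 1 to 2 (unwounded), and 33 to 34 and 0 to 1 (day 4). The ratio ran from -4.12 to -1.14, from -3.95 to -0.31, from 0.55 to 3.46 and from -0.35 (without part 3 of day 4 oral mucosa) to 2.99 in that order. The split by developmental myosins ran from -0.86 (without part 3) to 2.50, and was -3.10 when made by Myh3, both chosen after seeing the data.

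Single members changed sign in myosin-positive spots of unwounded oral against facial tissue: Acta1 -0.091, Neb -0.15, Mylpf -0.14, Mybpc1 -0.14, Actn2 -0.57, Actn3 -0.77, Myoz2 -0.39, Ldb3 -0.27, Des -0.90, Cryab -3.50, Csrp3 -2.43, Xirp2 -2.75, Casq1 -0.42 and Casq2 -3.18. At day 4 Tnni1 was -0.85, Tnnc1 -0.49 and Casq2 -0.98. Over section parts left out, facial wound ratios ran from -0.081 to 3.35 (Actn3), -0.68 to 2.58 (Atp2a1), -3.38 to 0.45 (Csrp3), -2.84 to 1.61 (Myot) and -4.60 to 0.18 (Xirp2), and oral wound ratios from -2.30 to 0.14 (Ldb3), -3.71 to 0.012 (Mb), -3.28 to 0.038 (Myot) and -2.87 to 0.068 (Tnni2). Myosin-positive spots held 96.3% or 5.14% of member UMIs in day 4 oral mucosa at a myosin share of 0.1% or 2%, and 97.7% or 0.605% in unwounded oral mucosa; at 0.1% they held 51.7% in day 4 and 60.5% in unwounded facial skin, and no facial spot reached 2%. With at least 200 core UMIs per spot the slow percent of day 4 oral mucosa was 0.734%. Facial values rest on few muscle UMIs, and with 1 section per group no spread between animals is known.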

Other observations

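Across the 37 genes, the slow troponins kept the direction of their wound difference in both tissues under every setting tried, which Actn3 and Atp2a1 did in oral mucosa only. Over the alternatives the log2 ratio of Actn3 ran from 0.32 to 2.66 in oral mucosa and from -0.08 to 3.35 in facial skin. Casq2 ran from 0.86 to 2.26 in oral mucosa and from -0.29 to 1.83 in facial skin, and Cryab from -1.06 to 0.54 in oral mucosa and from -4.14 to -0.23 in facial skin.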
